A study of Mus musculus with 6 samples.

Results

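The Polycomb complex genes described here are 10 genes picked by symbol in the deposited gene table: Ezh2, Ezh1, Eed, Suz12 and Jarid2 of Polycomb repressive complex PRC2, Rnf2, Ring1, Bmi1 and Pcgf6 of complex PRC1, and Kdm6b, an opposing demethylase. They are 10 of the 26982 genes in that table, and all 10 were among the 17638 that passed the low-count filter. They were measured by RNA-seq in mouse 2-cell embryos, in 3 groups of 2 libraries. The Suv39h1wt embryos had been injected as zygotes with wild-type Suv39h1 mRNA and the Suv39h1mut embryos with a mutant form of it, both at 0.6 µg/µl and 18 h after hCG, and the third group was non-injected. Suv39h1 encodes a methyltransferase of H3K9, the heterochromatin mark. The labels give no strain, no description of the mutation and no number of embryos per library. None of the 3 groups was injected without Suv39h1 mRNA, so an effect of the injection and an effect of the mRNA cannot be told apart against non-injected embryos. Whether the 2 libraries of a group were made from different sets of embryos is not stated in the labels, so the spread behind each p-value may be technical.

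Polycomb proteins keep genes silent through histone marks. PRC2 methylates histone H3 to give H3K27me3: EZH2 or its paralog EZH1 is the catalytic subunit, EED binds the finished mark and stimulates the enzyme, SUZ12 is the scaffold, and JARID2 is an accessory subunit that helps bring the complex to chromatin. PRC1 ubiquitinates histone H2A through RNF2 or its paralog RING1, and its composition is set by the PCGF subunit, BMI1 in a canonical form and PCGF6 in a variant form. KDM6B, like KDM6A, removes methyl groups from H3K27. In mouse oocytes PRC2 lays down H3K27me3 that is inherited by the embryo and keeps a small set of genes silent on the maternal allele.

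Gene counts per library totalled 46.0 M and 43.1 M in Suv39h1wt, 48.6 M and 46.7 M in Suv39h1mut, and 33.5 M and 36.4 M in non-injected embryos (libraries 1 and 2 of each group). Mitochondrial ribosomal RNA took 47.3%, 37.4% and 46.8% of counts in the libraries numbered 2 of the Suv39h1wt, Suv39h1mut and non-injected groups, against 26.7%, 28.7% and 37.0% in those numbered 1. Suv39h1 itself gave no excess of reads in the injected groups, with a log2 fold change of 0.05 ± 0.45 (SE) for injected against non-injected embryos, so the counts do not show the injected mRNA. The summed level of 9 markers of the 2-cell stage (Zfp352, Zscan4 genes and others) was 673.9 and 812.9 CPM in Suv39h1wt libraries. It was 572.1 and 444.6 CPM in Suv39h1mut and 304.7 and 316.6 CPM in non-injected libraries. Zfp352 was most of this sum, with a mean of 354.1 CPM over the 6 libraries. Markers of sperm summed to at most 2.1 CPM and those of blood to at most 22.1 CPM, and of the 10 cumulus and granulosa markers, which summed to 24.1 to 38.2 CPM, between 3 and 6 were at 0 in each library. CPM are counts scaled to library size, with TMM factors applied. In such bulk libraries, fewer cells with a transcript and less of it per cell cannot be told apart, nor can stored maternal RNA and newly made RNA.

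The core PRC2 genes Ezh2, Eed and Suz12 shared a profile in which every library numbered 1 lay above every library numbered 2, whatever the injection. Jarid2, Pcgf6 and 11.2% of all genes also had every library numbered 1 above every library numbered 2. Ezh2 (ENSMUSG00000029687, mm9 chr6:47480273-47545340) was read at 369.7 and 79.9 CPM in Suv39h1wt libraries 1 and 2, at 387.7 and 106 CPM in Suv39h1mut, and at 127 and 76.5 CPM in non-injected embryos. Library 1 was the higher in every group, and the injected and non-injected groups overlapped because both libraries 2 of the injected groups lay below non-injected library 1. Eed (ENSMUSG00000030619, mm9 chr7:97103166-97129493) was read at 202 and 48.7 CPM in Suv39h1wt, 164 and 77.9 CPM in Suv39h1mut, and 80.1 and 25.8 CPM in non-injected embryos. Its lowest value, in non-injected library 2, came from 844 counts, and its highest, in Suv39h1wt library 1, from 10509. Suz12 (ENSMUSG00000017548, mm9 chr11:79806608-79847625) was read at 1539.8 and 528 CPM in Suv39h1wt, 1791 and 538 CPM in Suv39h1mut, and 827 and 402 CPM in non-injected embryos. Over the 6 libraries the CPM of Eed spanned 7.81-fold, that of Ezh2 5.07-fold and that of Suz12 4.46-fold, the widest ranges among the 9 members read in every library.

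Of the other PRC2 members Ezh1 did not follow that profile, and Jarid2 followed it over a narrower range, 1.81-fold. Ezh1 (ENSMUSG00000006920, mm9 chr11:101052429-101087777) was read at 27.6 and 56.7 CPM in Suv39h1wt libraries 1 and 2, 21.3 and 21.03 CPM in Suv39h1mut, and 38.4 and 29.5 CPM in non-injected embryos. Suv39h1wt library 2, where Ezh2 was near its lowest, held the highest Ezh1 value. Jarid2 (ENSMUSG00000038518, mm9 chr13:44824843-45017012) was read at 75.9 and 62.3 CPM in Suv39h1wt, 89.6 and 66.1 CPM in Suv39h1mut, and 80.8 and 49.5 CPM in non-injected embryos. All 3 groups overlapped for Jarid2.

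Among the PRC1 members Bmi1 stood out by its level. Bmi1 (ENSMUSG00000026739, mm9 chr2:18598645-18608256) was read at 1506 and 1759 CPM in Suv39h1wt, 1376 and 1544 CPM in Suv39h1mut, and 804 and 1062 CPM in non-injected embryos. All 4 injected libraries lay above both non-injected ones. Rnf2 (ENSMUSG00000026484, mm9 chr1:153316536-153347953) was read at 245 and 146 CPM in Suv39h1wt, 253 and 197 CPM in Suv39h1mut, and 155 and 103 CPM in non-injected embryos. The Suv39h1mut libraries lay above both non-injected ones, whereas Suv39h1wt library 2 lay just below non-injected library 1. Pcgf6 (ENSMUSG00000025050, mm9 chr19:47108109-47125380) had the narrowest range, at 105 and 92.5 CPM in Suv39h1wt, 107 and 73.2 CPM in Suv39h1mut, and 121 and 92.9 CPM in non-injected embryos. Ring1 (ENSMUSG00000024325, mm9 chr17:34157737-34161625) was barely read, with 52 and 6 counts in Suv39h1wt, 24 and 0 counts in Suv39h1mut, and 4 and 21 counts in non-injected embryos. These are at most 1.00 CPM, and a count of 0 in Suv39h1mut library 2 allows up to 3 counts, or 0.0635 CPM, by counting error alone. Ring1 entered the tests on these few counts, and its fold changes carry errors too large to order the groups.

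Kdm6b (ENSMUSG00000018476, mm9 chr11:69212010-69227177) ran the other way from the core PRC2 genes across the library numbers. It was read at 66.0 and 190.4 CPM in Suv39h1wt libraries 1 and 2, 93.4 and 102 CPM in Suv39h1mut, and 76.6 and 168 CPM in non-injected embryos. Library 2 was the higher in every group, by little in Suv39h1mut.

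**Figure D1:**
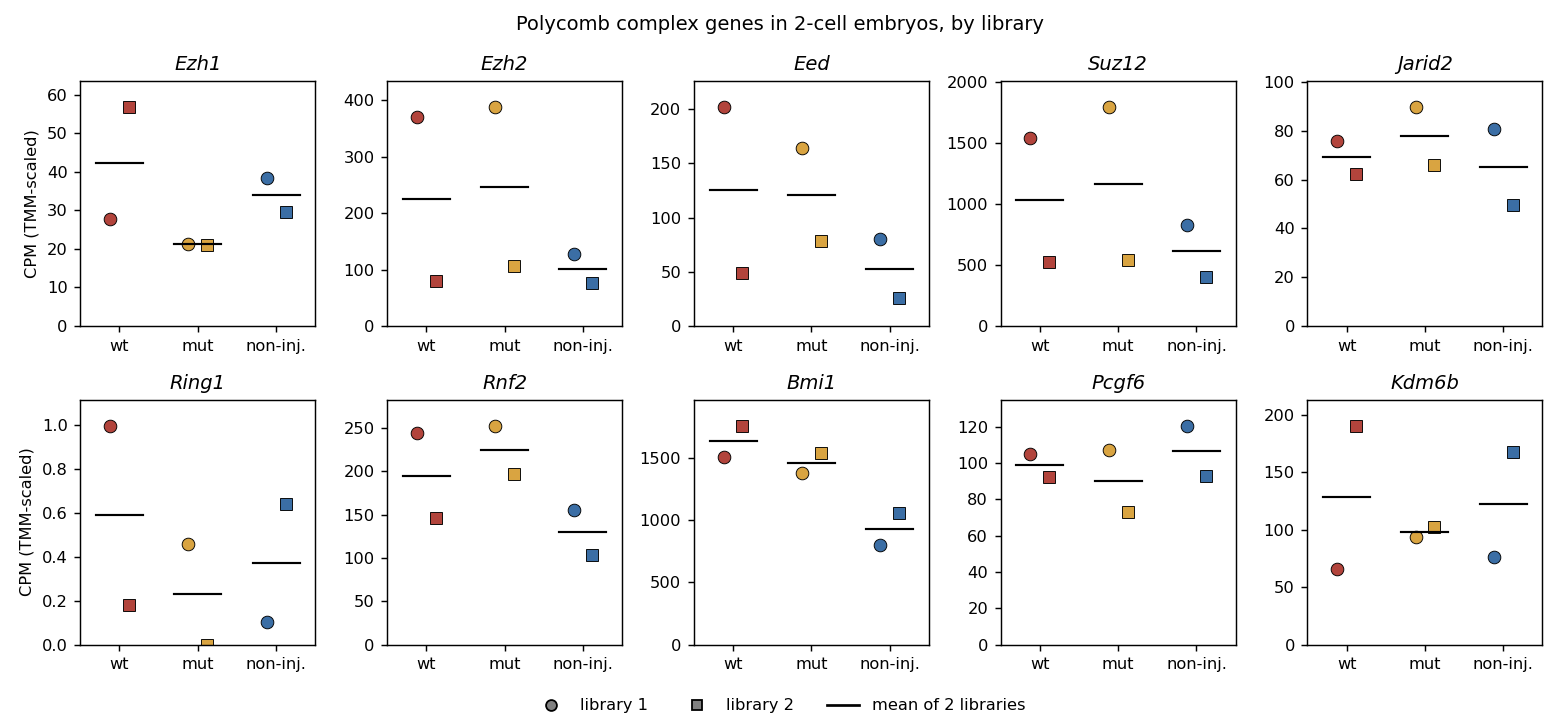
CPM after TMM scaling (y axis, a panel per gene with its own scale) of the 10 genes in Suv39h1wt (wt), Suv39h1mut (mut) and non-injected embryos; circles are libraries 1, squares libraries 2 and bars the mean of the 2 libraries. Ezh2, Eed and Suz12 are higher in library 1 of every group, Kdm6b is higher in library 2, and for Bmi1 the 4 injected libraries lie between 1376 and 1759 CPM against 804 and 1062 CPM without injection.

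Levels were compared between genes only per kilobase of transcript. With the gene lengths in the authors' deposited table the median over 6 libraries was highest for Bmi1 at 2766 CPM per kb and next for Suz12 at 1082, with Bmi1 above Suz12 in 5 of 6 libraries. Then came Jarid2 at 105.5, Ezh2 at 76.6, Eed at 62.8, Rnf2 at 58.3, Pcgf6 at 40.2, Ezh1 at 34.9 and Kdm6b at 26.4 CPM per kb, where the ranges of all neighbours overlapped. Ring1 came last at 0.157 CPM per kb, below Kdm6b in 6 of 6 libraries. The deposited lengths are short for several members, 0.673 kb for Jarid2 and 0.631 kb for Suz12 against 9.715 and 4.945 kb for the union of their exons in GENCODE M21. With exon-union lengths Bmi1 at 362.6 and Suz12 at 138 CPM per kb stayed first and second and Ring1 at 0.0988 stayed last. Rnf2 moved to the third place at 42.8 CPM per kb and Jarid2 to the eighth at 7.31, so the middle of the order depends on the length used.

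**Figure D2:**
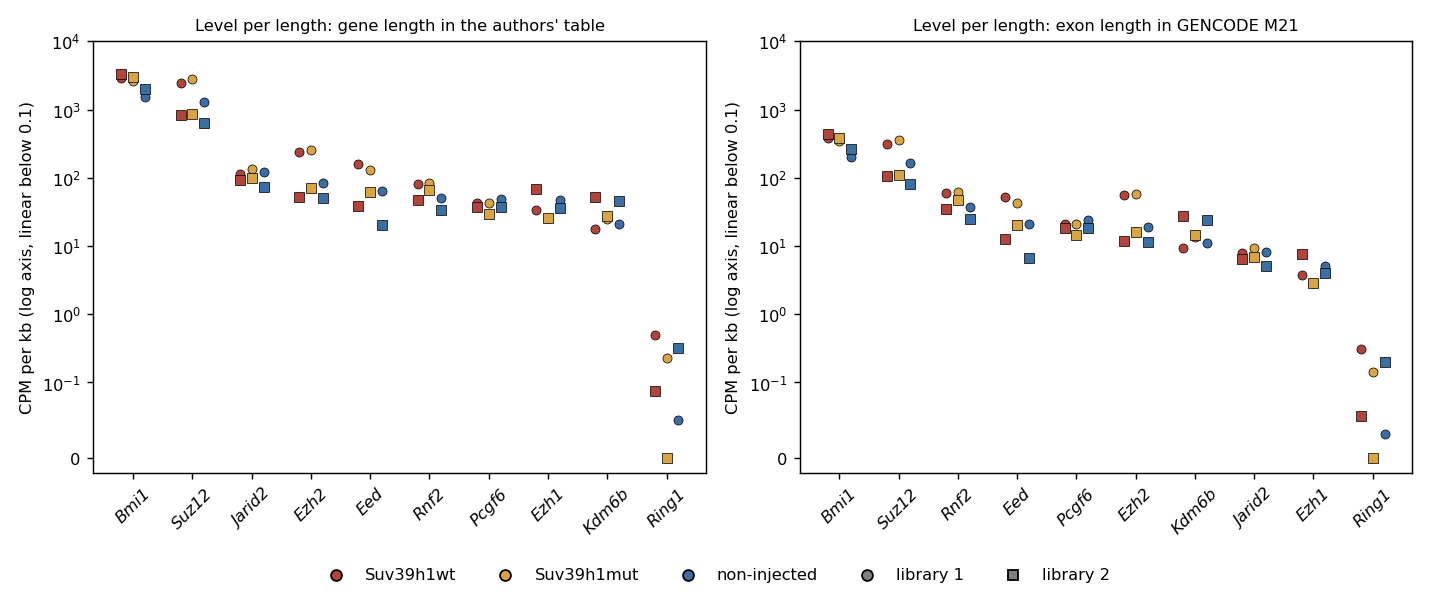
Level per gene length (CPM per kb, log axis with a linear part below 0.1) of the 10 genes in the 6 libraries, with the gene length from the authors' table (left) and the exon-union length (right); genes are ordered by their median. Bmi1 and Suz12 are highest and Ring1 lowest with either length, while Jarid2 is the third on the left and the eighth on the right.

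The balance between paralogs differed widely between libraries. Per kilobase of deposited length, Ezh2 exceeded Ezh1 7.20-fold and 0.758-fold in Suv39h1wt libraries 1 and 2, 9.80-fold and 2.72-fold in Suv39h1mut, and 1.78-fold and 1.39-fold in non-injected embryos. Ezh1 was the more abundant catalytic subunit transcript in Suv39h1wt library 2 alone, and with exon-union lengths Ezh2 was the higher there too, 1.57-fold. Among the demethylases, Kdm6a exceeded Kdm6b 5.56-fold and 0.562-fold in Suv39h1wt, 5.04-fold and 1.85-fold in Suv39h1mut, and 2.50-fold and 0.747-fold in non-injected embryos. In both pairs library 1 of each group had the higher ratio. The mean log2 ratio of Ezh2 over Ezh1 was 1.22 ± 2.30 in Suv39h1wt, 2.37 ± 1.31 in Suv39h1mut and 0.65 ± 0.25 in non-injected embryos (SD, n = 2 each). In two-sided exact permutation tests over libraries, p was 0.333 to 1 for the 4 comparisons of Ezh2 over Ezh1 and 0.667 to 1 for those of Kdm6a over Kdm6b, and 1 after adjustment over the 8 tests. The smallest p such a test allows is 0.333 for 2 against 2 libraries and 0.0667 for 4 against 2. Rnf2 exceeded Ring1 by 108-fold to 1020-fold per kilobase in the 5 libraries with Ring1 reads, and by at least 2090-fold in Suv39h1mut library 2 against a floor of 3 counts in that library.

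**Figure D3:**
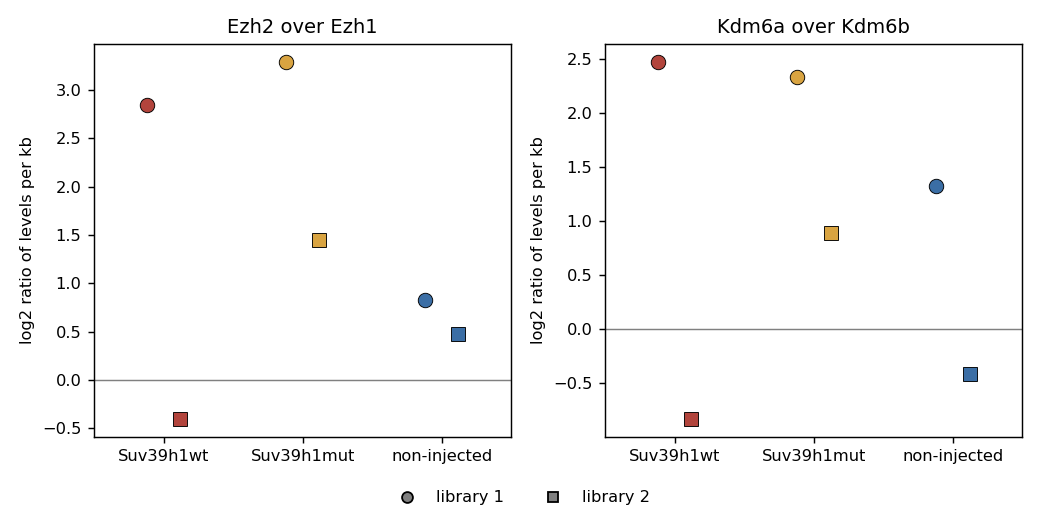
Log2 ratio of levels per kb of deposited gene length (y axis) for Ezh2 over Ezh1 and Kdm6a over Kdm6b; circles are libraries 1 and squares libraries 2. Values above 0 mean that the first gene is higher, and in both pairs library 1 lies above library 2 in all 3 groups.

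Injected embryos had fitted levels of 5 members that were higher than in non-injected ones by 0.70 to 1.22 on the log2 scale, without any passing the test over all genes. The mean level of Bmi1 was 1633 ± 179 CPM in Suv39h1wt and 1459.9 ± 119 CPM in Suv39h1mut, against 933 ± 182 CPM in non-injected embryos (SD, n = 2 each). The log2 fold change of both injected groups against non-injected embryos was 0.73 ± 0.38 for Bmi1, 0.70 ± 0.42 for Rnf2, 1.21 ± 0.70 for Ezh2, 1.22 ± 0.68 for Eed and 0.84 ± 0.62 for Suz12 (± SE). Adjusted p lay between 0.701 and 0.741 for these 5 in edgeR's quasi-likelihood test with Benjamini-Hochberg adjustment. None of the 10 members and none of the 17638 genes (0%) passed an adjusted p of 0.05 in this comparison, while 0 members and 1214 genes (6.88%) had an unadjusted p under 0.05. DESeq2 called 313 of these genes (1.77%) and no member. It gave no adjusted p for Ring1 in any comparison. For the other 5 members the values were 0.17 ± 0.42 for Jarid2, -0.13 ± 0.51 for Kdm6b, -0.18 ± 0.39 for Pcgf6, -0.19 ± 0.48 for Ezh1 and -0.01 ± 1.75 for Ring1.

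With the library number as a block, the errors of the core genes shrank. The log2 fold change of injected against non-injected embryos was then 0.88 ± 0.31 for Ezh2, 1.24 ± 0.29 for Eed, 0.70 ± 0.20 for Suz12, 0.70 ± 0.22 for Rnf2 and 0.74 ± 0.17 for Bmi1. These 5 members had unadjusted p of 0.0189, 0.00178, 0.00638, 0.0104 and 0.00167, and adjusted p of 0.156 to 0.312 in edgeR's test, so none passed. Higher values at that unadjusted p were seen for 1004 of all genes tested (5.69%). The same 5 members were higher in injected embryos within libraries 1 and within libraries 2, as were 16.5% of all genes. The block fit uses these same differences, so they are not further support. Within libraries 1 the difference on the log2(CPM + 1) scale was 1.57 for Ezh2, 1.17 for Eed and 1.01 for Suz12, and within libraries 2 it was 0.27, 1.22 and 0.41. Bmi1 alone among the 10 had no overlap between the 4 injected and the 2 non-injected libraries, which held for 8.59% of all genes. Under the block in edgeR's test, leaving out Suv39h1wt replicate 2 brought Eed to an adjusted p of 0.0191, and leaving out non-injected replicate 2 brought Ezh2 to 0.0437. Without non-injected replicate 1 Ezh2 was at 0.33 with an adjusted p of 0.815. The injected libraries were also deeper and had 9 of 9 markers of the 2-cell stage at a higher fitted level, with a median log2 fold change of 1.49. Their part in the difference was not tested.

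Each injected group against the same non-injected libraries gave values of similar size, and the 2 comparisons share those libraries. The log2 fold change of Ezh2 was 1.14 ± 0.77 (SE) in Suv39h1wt and 1.28 ± 0.77 in Suv39h1mut. That of Eed was 1.24 ± 0.75 in Suv39h1wt and 1.19 ± 0.75 in Suv39h1mut, and that of Suz12 was 0.75 ± 0.69 in Suv39h1wt and 0.92 ± 0.69 in Suv39h1mut. For the PRC1 genes it was 0.59 ± 0.47 and 0.80 ± 0.47 for Rnf2, and 0.81 ± 0.43 and 0.65 ± 0.42 for Bmi1 (Suv39h1wt, then Suv39h1mut). Ezh1, Kdm6b and Ring1 had opposite signs in the 2 comparisons. In the same order Ezh1 was at 0.31 ± 0.56 and -0.68 ± 0.56, and Kdm6b at 0.07 ± 0.59 and -0.32 ± 0.59. Ring1 was at 0.67 ± 2.33 and -0.68 ± 2.34. In this fit with group only, leaving out a library 1 sets a lone library 2 against both non-injected libraries. The library numbers are then unbalanced between the groups compared, and their part in the fold was not tested. Without Suv39h1wt replicate 1 Ezh2 was then at -0.32, Eed at -0.11 and Suz12 at -0.20 in Suv39h1wt, and without Suv39h1mut replicate 1 Suz12 was at -0.19 in Suv39h1mut. With the block and without Suv39h1wt replicate 1, Ezh2 was at 0.71, Eed at 1.07 and Suz12 at 0.70 for injected against non-injected embryos. These values take both injected groups together and keep both Suv39h1mut libraries. Within libraries 2, Suv39h1wt exceeded non-injected embryos by 0.061 for Ezh2, 0.89 for Eed and 0.39 for Suz12 on the log2(CPM + 1) scale. In edgeR's test no member passed in either comparison, nor did any gene (0%), at adjusted p of 0.753 or more in Suv39h1wt and 0.88 or more in Suv39h1mut. At an unadjusted p under 0.05 there were 1086 genes (6.16%) in Suv39h1wt and 781 (4.43%) in Suv39h1mut, with no member among them. DESeq2 called 392 genes (2.22%) in Suv39h1wt and 111 (0.629%) in Suv39h1mut, again with no member. Both Suv39h1wt libraries lay above both non-injected ones for Bmi1 (16.8% of all genes). Both Suv39h1mut libraries lay above them for Bmi1 and Rnf2 (18.9%) and below them for Ezh1 (16.5%), at -0.68 ± 0.56.

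Wild-type and mutant mRNA were told apart by none of the 10 genes after adjustment. Among the 9 members read in every library Ezh1 had the largest log2 fold change, and its Suv39h1wt libraries lay above both Suv39h1mut libraries, as was true of 12.3% of all genes. Its level was 42.2 ± 20.6 CPM in Suv39h1wt against 21.2 ± 0.19 CPM in Suv39h1mut embryos (SD, n = 2 each), a log2 fold change of 0.99 ± 0.57 with an adjusted p of 1 in edgeR's test. Without Suv39h1wt replicate 2 it was 0.39. The authors' deposited table gives Ezh1 a log2 fold change of 0.86 with an adjusted p of 0.559. The 8 other well-read members had log2 fold changes between -0.21 for Rnf2 and 0.39 for Kdm6b, with SE of 0.42 to 0.76, and Ring1 was at 1.35 ± 2.36. No gene of 17638 passed (0%), 480 (2.72%) had an unadjusted p under 0.05 with no member among them, and DESeq2 called 80 (0.454%) with no member.

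**Figure D4:**
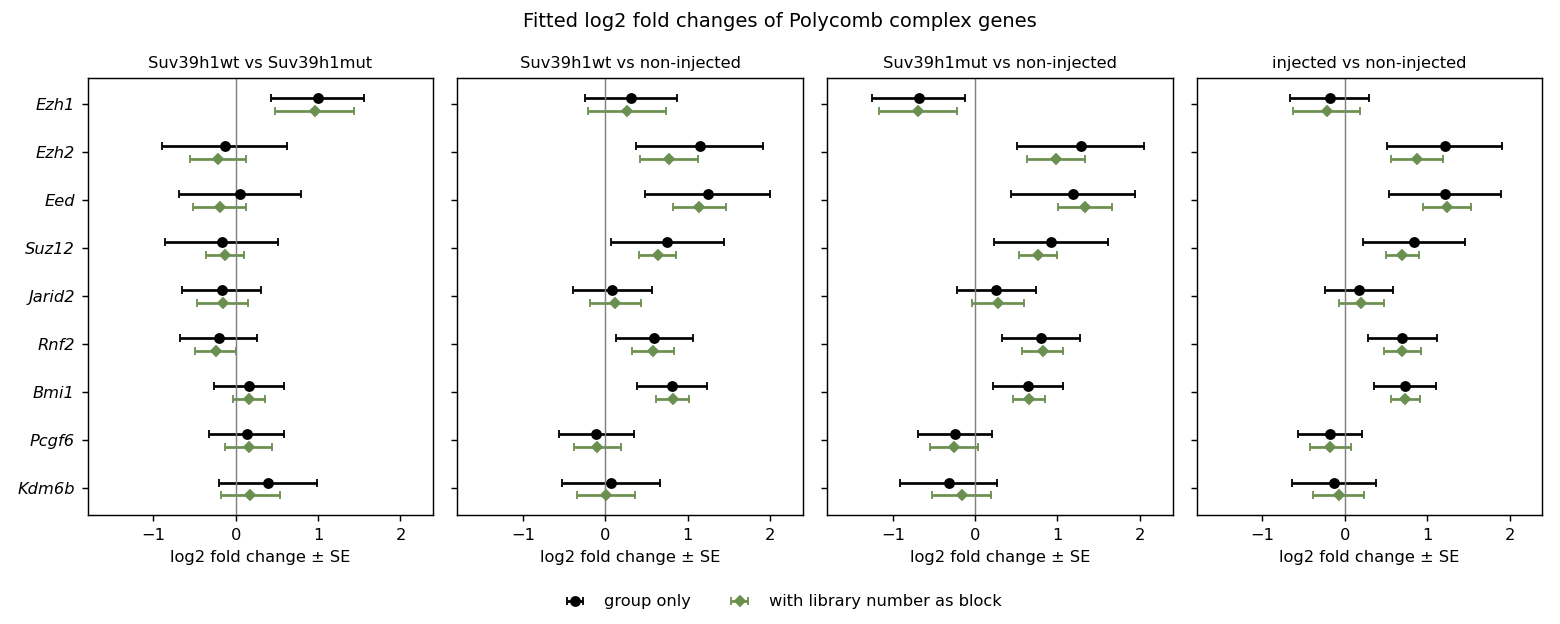
Log2 fold changes ± SE (x axis) of 9 genes in the 4 group comparisons, from edgeR with group only (black) and with the library number as block (green); Ring1 is left out for its error of 1.75 to 2.36 in the fit with group only. Ezh2, Eed, Suz12, Rnf2 and Bmi1 lie to the right of 0 in the comparisons with non-injected embryos, and the block narrows their errors.

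The number of a library, which the labels do not explain, gave the only comparison in which members were called with all 6 libraries in the fit. Ezh2, Eed and Suz12 were lower in the libraries numbered 2, with log2 fold changes of -1.61 ± 0.29, -1.59 ± 0.27 and -1.44 ± 0.19 and adjusted p of 0.0205, 0.0164 and 0.00714 in edgeR's test with group in the model. These are 3 of 10 members, beside 551 of 17638 genes (3.12%) called in all, 299 (1.70%) lower and 252 (1.43%) higher. The within-group difference, library 2 minus library 1 on the log2(CPM + 1) scale, was -2.20 for Ezh2 in Suv39h1wt, -1.86 in Suv39h1mut and -0.72 in non-injected embryos. For Eed it was -2.03, -1.06 and -1.60, and for Suz12 -1.54, -1.73 and -1.04 in the same order of groups. For these 3 genes all libraries numbered 2 lay below all numbered 1, which also held for Jarid2 and Pcgf6 and for 11.2% of all genes. Kdm6b was the reverse, with no overlap upwards (9.18% of all genes), at 0.93 ± 0.30 and an adjusted p of 0.133 in edgeR, against 0.0396 in DESeq2, which called 2457 genes (13.9%) and 4 members. Rnf2 was at -0.56 ± 0.21 and Bmi1 at 0.26 ± 0.16, with adjusted p of 0.19 and 0.46 in edgeR.

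The calls by library number changed with the groups kept in the fit. Leaving out a group also leaves fewer libraries, so a lost call may come from lower power, which was not tested. Without the Suv39h1mut group 0 members and 0 genes were called, and 2121 genes had an unadjusted p under 0.05 in edgeR's test. Ezh2 was then at -1.49, Eed at -1.86 and Suz12 at -1.31, with adjusted p of 0.205, 0.111 and 0.121. Without the non-injected group Eed lost its call, at -1.54 with an adjusted p of 0.0857. Over all genes 86 were called in that fit, and 601 without the Suv39h1wt group. The share of mitochondrial ribosomal RNA, higher in every library numbered 2, moved with the difference by library number. The 11 maternal oocyte markers summed to 2504, 2697 and 2031 CPM in libraries 2 of Suv39h1wt, Suv39h1mut and non-injected embryos. In libraries 1 they summed to 4029, 3654 and 2440 CPM. Dppa3 was a large part of these sums, at 789, 928 and 740 CPM in libraries 2 and 2537, 2059 and 1485 CPM in libraries 1. Oosp1 went the other way, at 871, 1020 and 557 CPM in libraries 2 and 425, 452 and 225 CPM in libraries 1. By fold change 4 of the 11 markers were higher in libraries 2 and 7 were lower. Of these markers Zp2, a zona pellucida protein, and Dppa3, a maternal protector of DNA methylation, were called lower at -1.50 ± 0.29 and -1.28 ± 0.18, and Oosp1, an oocyte-secreted protein, was called higher at 1.17 ± 0.18. Their part in the difference was not tested. With the mitochondrial ribosomal RNA genes left out of the library sizes, 542 genes were called.

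**Figure D5:**
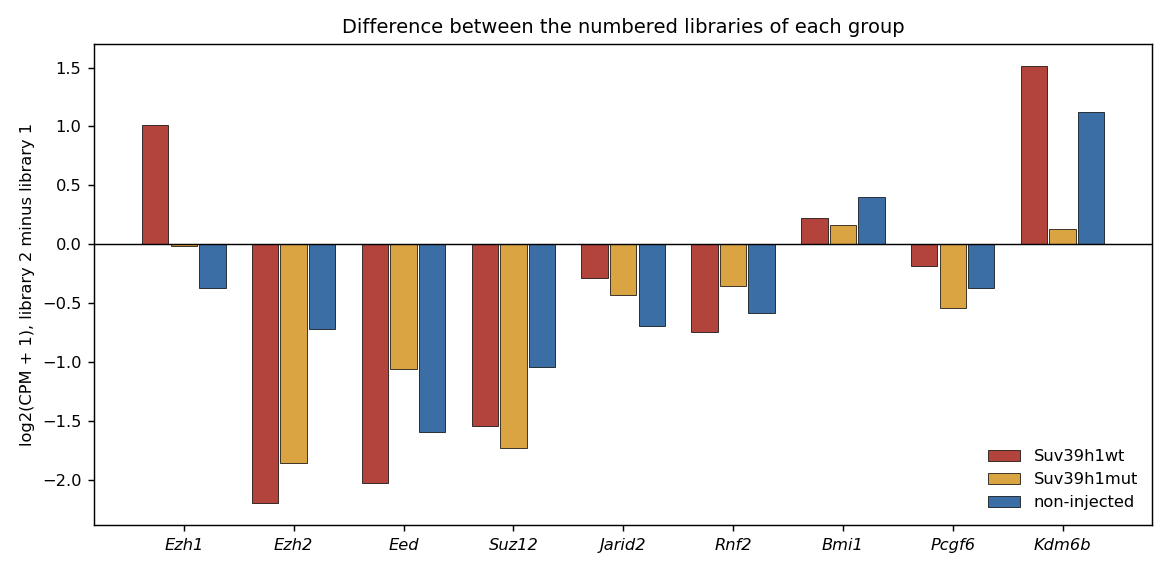
Difference in log2(CPM + 1) between library 2 and library 1 of each group (y axis) for 9 genes, with Suv39h1wt, Suv39h1mut and non-injected bars from left to right; Ring1 is left out for its low counts. Bars of Ezh2, Eed and Suz12 point down in all 3 groups, between -0.72 and -2.20, and those of Kdm6b point up.

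The promoters of the 3 genes called by library number are printed to show what they have in common and what they do not. They are the 250 bases before the start in the RefSeq promoter table (GRCm38.p6), on the strand of the gene, with matches to the words searched in capitals. The printed stretches lie at chr6:47595031-47595280 on the minus strand for Ezh2, chr7:89980977-89981226 on the minus strand for Eed and chr11:79992856-79993105 on the plus strand for Suz12.
Ezh2: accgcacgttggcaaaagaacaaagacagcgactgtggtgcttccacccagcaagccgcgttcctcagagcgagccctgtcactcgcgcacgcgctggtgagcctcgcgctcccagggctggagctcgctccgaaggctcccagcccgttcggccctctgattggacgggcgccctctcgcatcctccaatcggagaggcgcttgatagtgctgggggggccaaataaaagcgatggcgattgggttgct
Eed: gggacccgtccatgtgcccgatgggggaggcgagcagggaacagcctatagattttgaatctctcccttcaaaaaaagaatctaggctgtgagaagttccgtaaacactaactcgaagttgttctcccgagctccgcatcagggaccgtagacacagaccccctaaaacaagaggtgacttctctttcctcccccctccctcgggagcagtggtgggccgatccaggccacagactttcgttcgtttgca
Suz12: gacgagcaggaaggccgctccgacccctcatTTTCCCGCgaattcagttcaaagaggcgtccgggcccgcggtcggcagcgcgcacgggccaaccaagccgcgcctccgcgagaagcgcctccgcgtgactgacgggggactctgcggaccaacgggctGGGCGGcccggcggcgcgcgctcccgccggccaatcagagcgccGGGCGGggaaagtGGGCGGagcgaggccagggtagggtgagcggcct
The words searched on both strands were TTTGGCGC and TTTCCCGC (E2F), GGGCGG (GC box), CACGTG (E box) and CGGAAG (ETS), over windows of 300 bases that run on past the start. Suz12 holds TTTCCCGC at base -219 from the start and GGGCGG at 3 places, and Ezh2 holds TTTGGCGC from base 4 after the start, outside the printed part. The Eed window holds none of the 5 words. Of 32851 promoter windows, 0.514% hold TTTGGCGC, 1.07% TTTCCCGC, 35.7% GGGCGG, 7.15% CACGTG and 16.9% CGGAAG. CpG pairs numbered 31 in the window of Ezh2, 17 in that of Eed and 41 in that of Suz12, against a median of 7 over all windows. The windows of the other matched members held from 22 (Pcgf6) to 37 (Ring1). GGGCGG was also in windows of Rnf2, Bmi1, Jarid2, Ring1 and Pcgf6, so neither trait is particular to the called genes. Of the 10 members 9 were matched in the promoter table, all but Kdm6b.

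Other genes were nearer in profile to Ezh2 and to Eed than any other member was. The measure was the root mean square difference of centred log2(CPM + 1) over the 6 libraries, among 13420 genes with a mean of at least 1 CPM, where the median gene was at 1.14 from Ezh2 and 1.16 from Eed. Nearest to Ezh2 were Dpys at 0.127, Gm4858 at 0.174 and Kif4-ps at 0.178, of which Dpys and Kif4-ps had at most 4.11 CPM. Nearest to Eed were Btbd10 at 0.133, E2f5 at 0.136 and Fgf7 at 0.142. E2f5, an E2F family transcription factor, was read at 669.7 and 215 CPM in Suv39h1wt libraries 1 and 2, 678 and 303 CPM in Suv39h1mut, and 284 and 94.8 CPM in non-injected embryos. Suz12 ranked 18 among the genes nearest to Ezh2, at 0.239, and Eed ranked 160, at 0.369. Kdm6b was far from both, at 1.42 from Ezh2 and 1.48 from Eed, beyond the median gene.

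The rest of the Polycomb machinery was read from lists of genes named by function. None of the 10 other PRC2 core and accessory genes, the 24 other PRC1 subunits or the 10 genes of the H2A deubiquitinase, DNA-binding partners and other H3K27 demethylases passed in any comparison between injection groups. Their median log2 fold changes for injected against non-injected embryos were -0.08, -0.28 and 0.12, against 0.43 for the 10 members and -0.02 for all genes tested. For Suv39h1wt against Suv39h1mut they were -0.24, 0.18 and -0.24, against 0.09 for the members and -0.01 for all genes. By library number 4 genes of these lists of 10, 24 and 10 were called, beside 3.12% of all genes. Phf1, a PRC2 accessory subunit that binds H3K36 methylation, was higher in libraries 2 at 1.57 ± 0.24, and Phc2, a PRC1 subunit that polymerises, at 1.06 ± 0.21. Mga, a DNA-binding subunit of the PCGF6 form of PRC1, was lower at -1.01 ± 0.23, and Kdm6a at -1.24 ± 0.24. Adjusted p in edgeR's test was 0.0115, 0.03, 0.0477 and 0.027 for Phf1, Phc2, Mga and Kdm6a. The histone-binding PRC2 subunit gene Rbbp4 was at -0.73 ± 0.65 for Suv39h1wt against Suv39h1mut, and Lcorl, whose locus makes a PRC2 accessory protein, was at -1.10 ± 1.45. In the same comparison Cbx2 and Cbx7, which read H3K27me3 in canonical PRC1, were at 0.76 ± 0.52 and -1.86 ± 1.17. Asxl2, a cofactor of the H2A deubiquitinase, was at 0.66 ± 0.65, and Uty, the Y-linked relative of Kdm6a, at -0.77 ± 0.78. None of these 6 had an adjusted p below 1 in edgeR's test.

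Of 2 lists of genes that Polycomb is known to silence, no gene passed in edgeR's test in any comparison. Of 6 genes with imprinted expression set by maternal H3K27me3, 5 passed the low-count filter, and 4 of these 5 had a lower fitted level in injected embryos, as had 8924 of the 17638 genes tested. Their median log2 fold change was -1.05, against -0.02 for all genes. Gab1, an adaptor protein gene of this list, was read at 7.47 and 4.19 CPM in Suv39h1wt, 8.18 and 11.7 CPM in Suv39h1mut, and 23.2 and 18.2 CPM in non-injected embryos. The 4 injected libraries lay below both non-injected ones, with a log2 fold change of -1.45 ± 0.60, an unadjusted p of 0.0354 and an adjusted p of 0.701 in edgeR's test. Groups without overlap downwards were seen for 8.47% of all genes. Xist, the RNA that coats the inactive X chromosome, was read at 12.6 and 2.65 CPM in Suv39h1wt, 17.5 and 15.7 CPM in Suv39h1mut, and 18.8 and 15.9 CPM in non-injected embryos. Only Suv39h1wt library 2 was far from the rest, and the log2 fold change for Suv39h1wt against Suv39h1mut was -1.12 ± 0.82 with an adjusted p of 1 in edgeR's test. Of 55 developmental regulators that are targets of Polycomb in embryonic stem cells, 34 passed the filter. Of these, 21 had a higher fitted level in injected embryos (61.8%, against 49.4% of all genes). Most of the 34 were read at a few CPM or less, so their directions are uncertain. Hoxa11, counted as higher, had a mean of 0.638 CPM and a log2 fold change of 4.68 with an SE of 10783. Hoxd11 had 53 and 374 counts in Suv39h1wt, 4 and 35 in Suv39h1mut, and 8 and 4 in non-injected embryos. Hoxb9 had 147 and 89 counts in Suv39h1wt, 11 and 21 in Suv39h1mut, and 34 and 138 in non-injected embryos. Both HOX genes had an adjusted p of 1 for Suv39h1wt against Suv39h1mut in edgeR's test.

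Some reads may belong to genes that overlap the members. Gm17629, a long noncoding RNA gene, overlaps Ezh2 and had 23 to 261 counts per library against 2499 to 20244 for Ezh2. Gm16706 overlaps Suz12 and had 16 to 243 counts against 13118 to 93509. The small nucleolar RNA SNORA61 within Jarid2 had 0 to 2 counts. Whether the counting used strand is not given in the sources used here.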

How the data were processed

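Per the submitters' processing notes, the tools were CASAVA 1.8.2, TopHat2 2.0.14, Bowtie and HTSeq 0.6.1, and the genome build was mm9; per the labels' protocols, cDNA was amplified from 2 ng of total RNA. The annotation release is not given in the sources used here. The raw counts deposited by the authors were tested. The signal values deposited by the authors (counts divided by a size factor, and these per kb) gave gene lengths only. The log2 fold changes and p-values in the authors' deposited table are quoted as theirs. All 6 libraries were mapped from the labels, and 0 value columns were left unmapped.

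edgeR 4.0.16 (robust quasi-likelihood, TMM, filterByExpr with a minimum count of 10, R 4.3.3) was fitted on all 6 libraries with group only, 3 residual degrees of freedom, and Benjamini-Hochberg adjustment over 17638 genes at 0.05. SE is the fold change over the root of F. DESeq2 1.42.0 was an alternative. Deviations of same-numbered libraries correlated at 0.306, 0.251 and 0.268 between groups, all over 0.1, so the number was also fitted as a block, with 2 residual degrees of freedom. In both fits edgeR shares spread across genes, so the p-values do not rest on the residual degrees of freedom alone. Fits were tested on simulated data. Log2(CPM + 1) was used for differences between single libraries and for likeness. Exon-union lengths come from GENCODE M21, matched by gene identifier, and promoters from RefSeq. Figures were drawn with matplotlib.

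The members, the lists and the 2-cell, maternal, cumulus, sperm and blood markers were chosen with earlier results of these data known. Named genes are the members, any list gene past the threshold, otherwise the 2 per list with the smallest p for Suv39h1wt against Suv39h1mut at 1 CPM or more, and the 3 genes most like each of the 2 widest-ranging members; those of marker lists below the threshold are given as sums.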

Additional observations from a re-analysis of the deposited data

How the results depend on the processing

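The number of members called was 0 in all 4 comparisons between injection groups under each alternative that changed a single choice: median-of-ratios scaling, upper-quartile scaling, no low-count filter, DESeq2, library sizes without mitochondrial ribosomal RNA, only the groups compared (not run for injected against non-injected, which uses all libraries), the replicate block, and without each replicate in turn (0 to 0). The block with each replicate left out, chosen after seeing the data, left 3 to 5 members higher in injected embryos at an unadjusted p under 0.05, 3 without non-injected replicate 1, and called 1 member after adjustment in 2 of 6 settings: Eed without Suv39h1wt replicate 2 (adjusted p 0.0191 in edgeR) and Ezh2 without non-injected replicate 2 (0.0437). By library number 3 members were called, and 0 when the Suv39h1mut group was left out. Over all genes, where 0 were called between injection groups, the count without a filter was 18 for Suv39h1wt against Suv39h1mut. It was 33 for Suv39h1wt and 9 for Suv39h1mut against non-injected embryos, and 69 for injected against non-injected embryos. Among the 17638 genes that edgeR tested, DESeq2 called 80, 392, 111 and 313 in the same order. By library number the count was 551, against 1005 without a filter and, among those 17638 genes, 2457 with DESeq2. It was 601 without the Suv39h1wt group, 86 without the non-injected group and 0 without the Suv39h1mut group. For Suv39h1wt against Suv39h1mut Eed, at 0.05, was at -0.011 with upper-quartile scaling and -0.19 with the replicate block. For injected against non-injected embryos Ring1, at -0.01, was at 0.14 with upper-quartile scaling and 0.037 without a filter, and for Suv39h1wt against non-injected embryos, at 0.67, it was at -0.62 with the replicate block. By library number Ezh1, at 0.21, was at -0.20 without the Suv39h1wt group, and Ring1, at -2.04, at 0.031 without the Suv39h1mut group. The cause of these turns was not tested. Upper-quartile scaling moved the median of all genes to 0.13 for Suv39h1mut against non-injected embryos and to -0.18 by library number.

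Leaving out 1 library in the fit with group only, which leaves the library numbers unbalanced, turned other directions. The part of the library number in these turns was not tested. For Suv39h1wt against Suv39h1mut the range was -1.60 to 1.09 for Ezh2, -1.29 to 0.75 for Eed, -1.12 to 0.95 for Suz12, -0.32 to 7.61 for Ring1, -0.60 to 0.13 for Rnf2, -0.10 to 0.44 for Pcgf6, -0.36 to 0.068 for Jarid2 and -0.56 to 0.99 for Kdm6b. For Suv39h1wt against non-injected embryos it was -0.28 to 0.77 for Ezh1, -0.32 to 1.88 for Ezh2, -0.11 to 2.34 for Eed, -0.20 to 1.42 for Suz12, -0.97 to 2.51 for Ring1, -0.28 to 0.15 for Pcgf6, -0.22 to 0.54 for Jarid2 and -0.87 to 0.74 for Kdm6b. For Suv39h1mut against non-injected embryos it was -0.19 to 1.58 for Suz12, -6.93 to 1.15 for Ring1, -0.54 to 0.011 for Pcgf6, -0.052 to 0.70 for Jarid2 and -0.73 to 0.35 for Kdm6b. For injected against non-injected embryos it was -0.48 to 0.075 for Ezh1, -3.12 to 1.83 for Ring1, -0.35 to 0.078 for Pcgf6, -0.14 to 0.62 for Jarid2 and -0.59 to 0.55 for Kdm6b; with the block Pcgf6 was at -0.24 to -0.079 and Jarid2 at 0.037 to 0.43 in this last comparison. With 2 libraries a group the spread within groups, a biological coefficient of variation of 0.862 (0.774 with the block), limits what could pass.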
